A study of Mus musculus with 71 samples.

Results

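The Ly6 family genes Ly6a, Ly6c1, Ly6c2, Ly6d and Ly6e and the progenitor surface receptors Cd7, Cd27 and Cd44 were followed by RNA-seq through a series of mouse Pax5 mutants and through early T cell development. The 8 genes were chosen by symbol, and each was found in the 25579 genes of the GRCm38 tables and in the 24420 genes of the mm9 tables. The mRNA level is given in TPM, the read count of a gene relative to its length, scaled to the same total in each sample, and the log2 fold changes are on the scale of log2(TPM + 0.1). A gene was called with an adjusted p under 0.05 from limma, with Benjamini-Hochberg adjustment over the genes of each model that exceeded 1 TPM somewhere in it.

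Ly6 proteins are small cysteine-rich proteins that are held in the outer membrane by a glycosylphosphatidylinositol (GPI) anchor, and their genes lie in a cluster. They are used as surface markers of blood cell progenitors: Ly6A is Sca-1, a marker of stem cells and early progenitors, Ly6D marks lymphoid progenitors that are biased to the B cell lineage, and Ly6C marks monocytes and granulocytes. CD7 is an immunoglobulin-like receptor of early T and natural killer cells, CD27 is the receptor of the TNF receptor family that binds CD70, and CD44 is the receptor for hyaluronan that thymocytes lose as they pass the CD4-CD8- (double negative, DN) stages. Pax5 is the transcription factor that commits progenitors to the B cell lineage.

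All mice had the strain label C57BL/6 and were sampled ex vivo at a few weeks of age. The pro-B experiments comprised 5 samples of Pax5(+/+) pro-B cells and 2 samples each of 10 mutant genotypes. Pax5(DOP/DOP), Pax5(DHD/DHD) and Pax5(DOP,HD/DOP,HD) cells lack the octapeptide, the partial homeodomain or both. The C-terminal regulatory domains CRD1 and CRD2 were deleted on both alleles in Pax5(DCRD1/DCRD1), Pax5(DCRD2/DCRD2) and Pax5(DCRD1,2/DCRD1,2) cells, and were deleted opposite a null allele in Pax5(DCRD1/-), Pax5(DCRD2/-) and Pax5(DCRD1,2/-) cells, which have therefore 1 mutant allele alone. In Vav-Cre Pax5(fl/fl) progenitors both floxed alleles were deleted by a Cre transgene that is active in all hematopoietic lineages from the stem cell on. A separate experiment held 2 samples each of Vav-Cre Pax5(fl/+) pro-B cells, which keep 1 intact allele, of Vav-Cre Pax5(Prd/fl) progenitors, which express the paired domain alone, and of Vav-Cre Pax5(fl/fl) progenitors. The T-lineage samples were wild-type LMPP, the lymphoid-primed multipotent progenitors of bone marrow (n = 2), the thymocyte stages DN1, DN2a and DN2b (n = 3 each) and DN3a and DN3b (n = 2 each), and DN3a cells of Rag2(-/-) mice (n = 2), which cannot rearrange antigen receptor genes. In each of DN1, DN2a and DN2b, a pair of samples carries the same replicate number in its titles, with the letters a and b added here to name them. Each was treated as a sample of its own, and the results with the mean of each pair as 1 sample are given beside the stages that they touch.

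The cells were sorted with antibodies against some of the proteins that these genes encode. The gate for pro-B cells, which included B220 and Kit and left out cells with CD2, IgM or IgD, used none of the 8 proteins. The Pax5(DCRD1,2/-) cells and the Vav-Cre Pax5(fl/fl) progenitors of the pro-B experiments were sorted as Lin-Ly6D+Kit-high B220+ cells, with anti-Ly6C in the lineage mix. Pax5(DCRD1,2/DCRD1,2) cells are labelled as pro-B cells and the progenitors of the experiment with the Prd allele as cells from an alternative gate, and the gates of these RNA-seq samples are not given in the sources used here. LMPP were sorted as Sca1+ cells with anti-Ly6C in the lineage mix, DN1, DN2a and DN2b cells as CD44+, and DN3a and DN3b cells as CD44-. A difference of Ly6d, Ly6c1, Ly6c2, Ly6a or Cd44 between cells from different gates cannot be told apart from the sort. In bulk samples, fewer cells of a type and less RNA per cell also cannot be told apart.

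The 5 Ly6 genes lie within 350011 bases of chromosome 15 (GRCm38.p6), among 22 annotated genes of which 13 are protein-coding. Ly6d is at 74762056-74763567 and Ly6e at 74955025-74959904, followed by Ly6a at 74994877-74998031, Ly6c1 at 75044018-75048920 and Ly6c2 at 75108161-75112066, and Ly6e alone is on the plus strand. Cd7 is on chromosome 11 at 121036747-121039478, Cd27 on chromosome 6 at 125232620-125237136 and Cd44 on chromosome 2 at 102811141-102901669, all on the minus strand. Ly6c1 and Ly6c2 are related genes, and by exon sequence each shares the most with the other. Of the windows of 50 bases in their exons, 22.4% of Ly6c1, 26.2% of Ly6c2 and 23.3% of Ly6a are also found in another gene, so unique reads undercount them and their levels are less certain, while Ly6d, Ly6e, Cd27 and Cd44 have 0 such windows. Cd7 shares 85 of its 846 windows (10.05%) with Gm11775, a noncoding gene on the opposite strand, and the strand setting of the read counting is not given in the sources used here. Noncoding genes also overlap Ly6a (Gm28068), Cd27 (E130112N10Rik) and Cd44 (Gm23731) on the opposite strand.

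RefSeq promoter sequence of GRCm38.p6 was matched for 4 of the 8 genes, and the bases upstream of the annotated gene are shown, 5′ to 3′ on the minus strand. The Ly6c1 (chr15:75048921-75049087) and Ly6c2 (chr15:75112067-75112221) sequences are shown because these neighbours did not move together in the data, and capitals mark the longest run of 15 bases that they share.
Ly6c1: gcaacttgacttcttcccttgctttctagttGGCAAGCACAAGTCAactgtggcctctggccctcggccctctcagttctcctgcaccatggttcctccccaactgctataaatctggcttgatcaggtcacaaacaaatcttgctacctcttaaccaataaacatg
Ly6c2: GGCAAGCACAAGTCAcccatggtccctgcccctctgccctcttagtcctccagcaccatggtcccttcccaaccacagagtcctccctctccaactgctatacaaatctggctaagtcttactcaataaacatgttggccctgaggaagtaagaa
The Cd27 (chr6:125237137-125237277) and Cd44 (chr2:102901670-102901915) sequences are shown because these genes moved in opposite directions in progenitors without Pax5, and capitals mark GGAA on either strand, the core letters of sites for ETS factors.
Cd27: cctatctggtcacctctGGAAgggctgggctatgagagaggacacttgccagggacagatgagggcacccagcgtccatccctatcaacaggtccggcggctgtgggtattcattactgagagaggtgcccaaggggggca
Cd44: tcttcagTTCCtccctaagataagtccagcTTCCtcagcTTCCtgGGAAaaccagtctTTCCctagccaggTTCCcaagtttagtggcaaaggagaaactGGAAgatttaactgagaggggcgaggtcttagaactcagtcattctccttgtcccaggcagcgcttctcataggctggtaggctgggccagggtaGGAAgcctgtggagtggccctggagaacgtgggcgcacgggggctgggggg
The letters GGAA occurred at 8 positions of the Cd44 sequence, a number that 1.29% of the 32851 promoter windows reached over the same 246 bases, and 93.1% of them held at least 1. They occurred at 1 position of the Cd27 sequence, and 79.6% of windows cut to 141 bases held at least 1. These matches describe the letters of the windows and were not tested for binding of a factor.

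The 31 samples aligned to GRCm38 held 10018678 to 43784791 reads assigned to genes, as recovered from TPM. The fewest were in Vav-Cre Pax5(fl/fl) replicate 2. In Pax5(+/+) pro-B cells, Pax5 mRNA was present at 442 ± 84.8 TPM (SD, n = 5), against 1653 ± 61.8 TPM (n = 2) in Vav-Cre Pax5(fl/fl) progenitors, so the level of the whole gene does not check the deletion, and it was at most 0.812 TPM in the T-lineage samples. The sum over 14 granulocyte marker genes differed widely between samples of 1 genotype, with 17026 and 1155 TPM in Pax5(DCRD2/-) and 1103, 893, 917, 7221 and 3746 TPM in Pax5(+/+) pro-B cells. This sum is set beside each result that it moves with. The sum over 14 B lineage markers was 15717 to 27821 TPM in the 10 genotypes other than Vav-Cre Pax5(fl/fl), where it was 6225 and 6847 TPM, and the sum over 10 early T lineage markers was 287 to 312 TPM in LMPP and 16449 and 16910 TPM in wild-type DN3a cells.

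The levels of the 8 genes differed widely. In Pax5(+/+) pro-B cells Ly6e was the highest at 2686 ± 262 TPM (SD, n = 5), followed by Ly6d at 349.6 ± 92.1 TPM (SD, n = 5). Cd44, Cd27, Ly6c2 and Ly6a had means of 36.2, 31.1, 24.0 and 16.8 TPM, and Cd7 and Ly6c1 were near the floor with 3.19 and 1.70 TPM. Between the 2 replicates of a mutant, the higher value was at most 1.17 times the lower for Ly6e and 1.37 times for Ly6d, and over the 5 Pax5(+/+) samples the highest was 1.28 and 2.00 times the lowest. In the mutants this ratio reached 18.5 for Ly6c2 and 35.7 for Cd7, whose levels are given with the markers that moved with them. When the 11 genotypes were ordered by their means, the samples of neighbours in that order overlapped in 3 of 10 pairs for Ly6d, 5 for Ly6a, 6 for Cd27 and Cd44, 7 for Cd7, 8 for Ly6c2 and 9 for Ly6c1 and Ly6e. The highest mean of a genotype was 414 times the lowest for Cd7, 23.9 times for Ly6a, 15.1 times for Ly6d and 1.63 times for Ly6e.

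Against Pax5(+/+) pro-B cells, more of these genes were called where CRD1 was deleted or Pax5 was absent, and so were more of all genes tested. Of the 8 genes, 0 were called in Pax5(DOP/DOP) cells (0.485% of all genes called; 0 of the 8 at an unadjusted p under 0.05, and 0 with edgeR or DESeq2 on recovered reads), 1 in Pax5(DHD/DHD) cells (0.639%) and 1 in Pax5(DOP,HD/DOP,HD) cells (1.22%). The counts were 2 in Pax5(DCRD2/-) cells (0.967%) and 1 in Pax5(DCRD2/DCRD2) cells (0.115%). Deletion of CRD1 gave 4 calls in Pax5(DCRD1/-) cells (10.9%) and 4 in Pax5(DCRD1/DCRD1) cells (7.75%), and deletion of both domains gave 5 in Pax5(DCRD1,2/-) cells (23.5%) and 4 in Pax5(DCRD1,2/DCRD1,2) cells (24.1%). In Vav-Cre Pax5(fl/fl) progenitors 7 were called (34.9%), of which 5 were higher and 2 lower. The 3 central-domain comparisons share Pax5(+/+) replicates 3 and 4, and the 7 other comparisons share all 5 Pax5(+/+) samples, so they are not independent of each other. The plot of the levels by genotype shows every sample, and the plot of the fold changes gives their intervals.

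**Figure D1:**
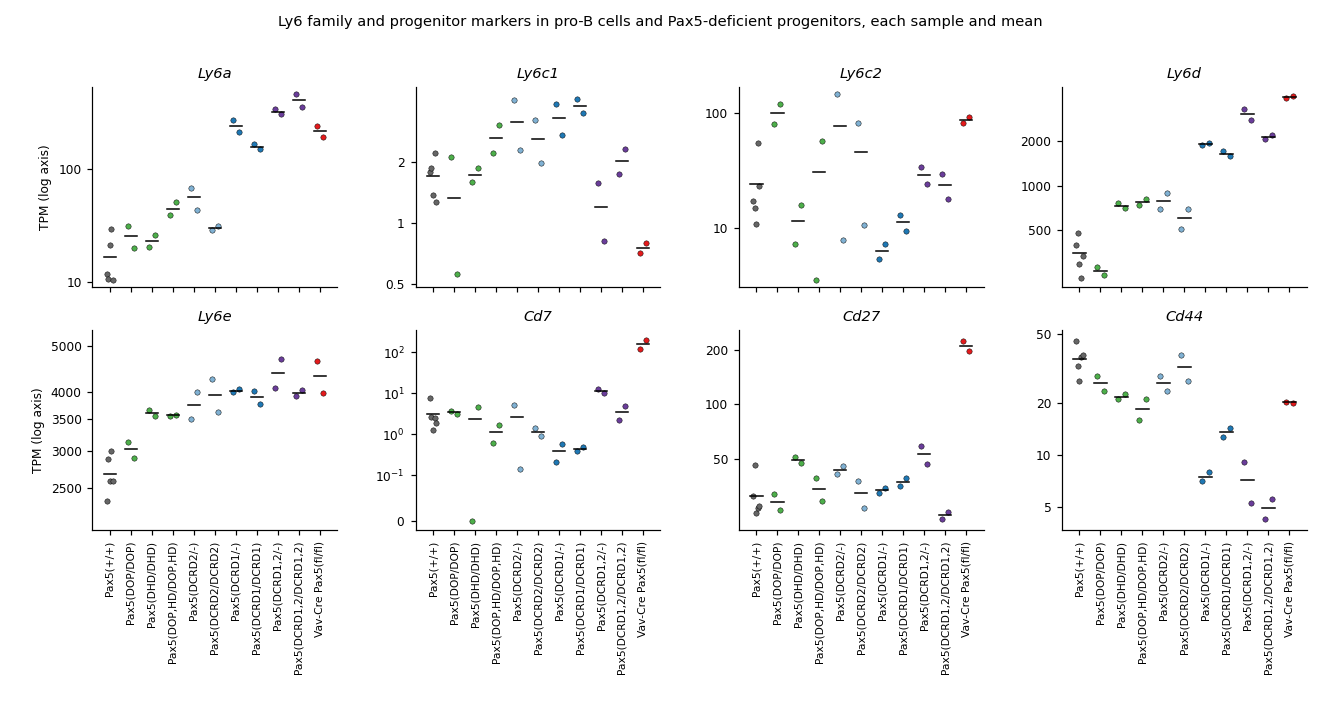
TPM of the 8 genes (y axes, logarithmic, for Cd7 linear below 0.1) in each of the 25 samples of the pro-B experiments by genotype (x axis), with points for samples and bars for the mean of 5 Pax5(+/+) samples or 2 samples of each mutant. Ly6d and Ly6a stand higher in all 5 genotypes without CRD1 or without Pax5 than in any Pax5(+/+) sample, while Cd44 stands lower.

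**Figure D2:**
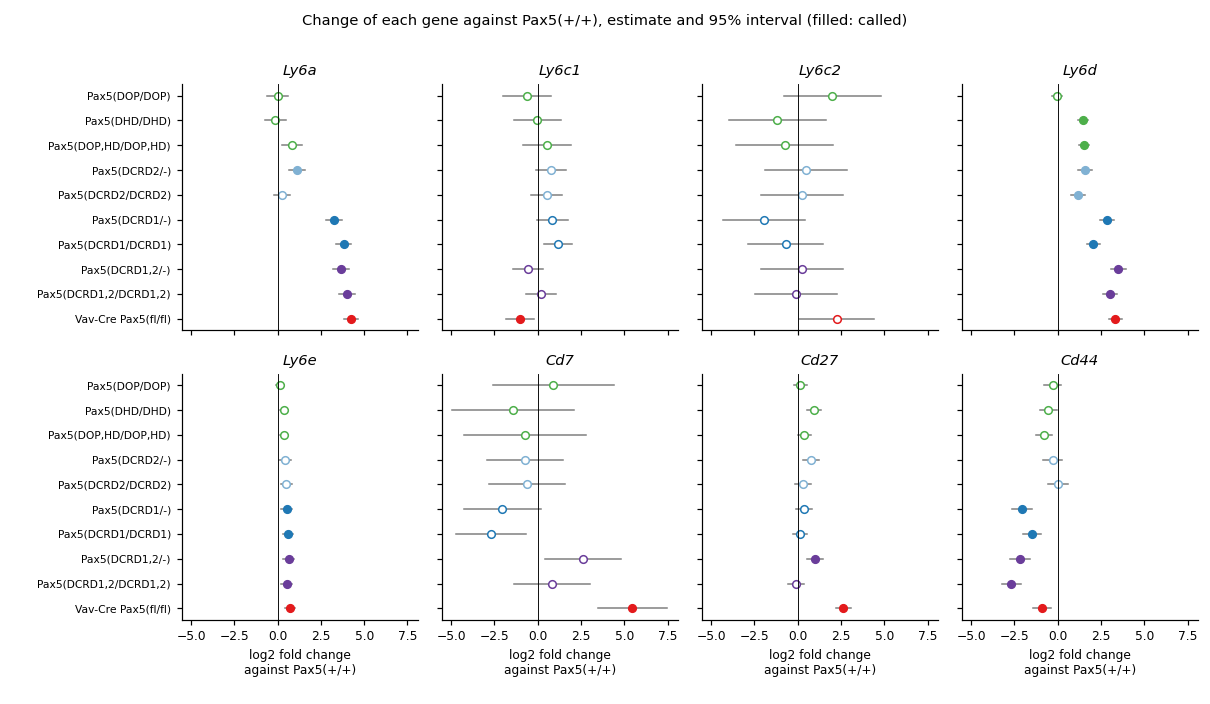
Log2 fold change against Pax5(+/+) pro-B cells (x axis) of the 8 genes in the 10 mutant genotypes (y axis), with bars for the 95% confidence interval of the limma fit and filled points where the gene was called. Ly6d was called in 9 of the 10 comparisons, and the intervals of Ly6c2 and Cd7 are the widest.

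Ly6d was higher than in Pax5(+/+) pro-B cells in 9 of the 10 mutants, all but Pax5(DOP/DOP). Its levels in the 5 Pax5(+/+) samples were 399, 478, 298, 239 and 334 TPM, and those of Pax5(DOP/DOP) cells were 281 and 248 TPM. The levels were 768 and 703 TPM in Pax5(DHD/DHD) and 746 and 811 TPM in Pax5(DOP,HD/DOP,HD) cells. All 4 of these samples were above all 5 Pax5(+/+) samples, and all were labelled as pro-B cells, whose gate did not use Ly6D. The log2 fold change was 1.46 (standard error 0.12, limma adjusted p = 0.00851) in Pax5(DHD/DHD) and 1.54 (standard error 0.12, limma adjusted p = 0.00324) in Pax5(DOP,HD/DOP,HD) cells, against -0.02 (95% confidence interval -0.30 to 0.27) in Pax5(DOP/DOP) cells. Compared directly, Pax5(DOP/DOP) cells differed from Pax5(DHD/DHD) cells by -1.48 on the log2 scale (limma adjusted p = 0.00165, or 0.0507 without Pax5(DHD/DHD) replicate 1). In these small models the call rested on single samples: without Pax5(+/+) replicate 3 or either Pax5(DHD/DHD) replicate, the adjusted p of limma for Pax5(DHD/DHD) was 0.0541, 0.217 and 0.122, and without either Pax5(DOP,HD/DOP,HD) replicate it was 0.0881 and 0.0763. The test of whether the octapeptide and homeodomain deletions combined other than by addition called 0 of the 8 genes (0.00769% of all genes; 2 of the 8 at an unadjusted p under 0.05, and 0 with edgeR or DESeq2), with 0.10 (-0.31 to 0.50) for Ly6d.

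Among the C-terminal mutants the means of Ly6d were lowest without CRD2 alone, higher without CRD1 alone and highest without both. Compared directly, Pax5(DCRD1,2/-) cells differed from Pax5(DCRD1/-) cells, which came from another gate, by 0.66 without a call (limma adjusted p = 0.0791). This step was called in 3 of 16 alternatives. Its levels were 692 and 891 TPM in Pax5(DCRD2/-) and 511 and 701 TPM in Pax5(DCRD2/DCRD2) cells, 1908 and 1955 TPM in Pax5(DCRD1/-) and 1717 and 1594 TPM in Pax5(DCRD1/DCRD1) cells. In the cells sorted as Ly6D+, the levels were 3327 and 2790.2 TPM for Pax5(DCRD1,2/-) and 3937 and 4059.6 TPM for Vav-Cre Pax5(fl/fl), and Pax5(DCRD1,2/DCRD1,2) cells had 2083 and 2219 TPM. None of these 14 samples overlapped the Pax5(+/+) samples, and the 4 samples with deletion of CRD1 alone, which were labelled as pro-B cells, lay above the 4 samples with deletion of CRD2. Against Pax5(+/+) the log2 fold change was 1.56 (standard error 0.19, limma adjusted p = 9.39e-04) in Pax5(DCRD2/-), 2.85 (standard error 0.19, limma adjusted p = 5.25e-07) in Pax5(DCRD1/-) and 3.51 (standard error 0.19, limma adjusted p = 2.55e-08) in Pax5(DCRD1,2/-) cells. The 3 homozygous mutants had 1.16, 2.05 and 3.01 for CRD2, CRD1 and both (adjusted p of limma 0.0283, 6.88e-06 and 1.34e-07), and Vav-Cre Pax5(fl/fl) progenitors had 3.32. The call in Pax5(DCRD2/DCRD2) cells was lost without Pax5(+/+) replicate 3 or 4 or Pax5(DCRD2/DCRD2) replicate 2 (limma adjusted p = 0.0856, 0.135 and 0.0505). It was kept in 10 of 19 alternatives and was also lost with no filter on low values, without the trend, with no read length term, with samples of 1 read length, with only the genotypes compared and with a replicate block in place of read length, where the log2 fold change was 0.46 (limma adjusted p = 0.0854). The difference of Ly6d between Pax5(DCRD1,2/-) and Vav-Cre Pax5(fl/fl) cells, which came from the same gate, was fitted as -0.19 (-0.74 to 0.36) for Vav-Cre Pax5(fl/fl) relative to Pax5(DCRD1,2/-). This direction is opposite to that of the means of 3998 and 3058 TPM because a term for read length was fitted, and with no such term the difference was 0.39 (limma adjusted p = 0.276).

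Ly6a, which encodes Sca-1, divided the genotypes by CRD1. Its levels in Pax5(+/+) cells were 11.9, 10.8, 21.5, 29.2 and 10.6 TPM, of which replicates 3 and 4, the samples with reads of 100 nucleotides, were the highest (25.3 ± 5.48 TPM, n = 2, against 11.1 ± 0.739 TPM in the 3 samples with reads of 50). Read length was therefore a term of the C-terminal model, and its fitted changes differ from ratios of the means above. The reads were trimmed to 50 nucleotides before alignment. The term therefore takes up any difference between the samples sequenced at each length, and read length cannot be told apart from these. The levels were 31.3 and 20.2 TPM in Pax5(DOP/DOP), 20.3 and 25.9 TPM in Pax5(DHD/DHD), 38.8 and 50.4 TPM in Pax5(DOP,HD/DOP,HD) and 28.6 and 31.2 TPM in Pax5(DCRD2/DCRD2) cells, and none of these genotypes was called. Pax5(DCRD2/-) cells had 68.3 and 43.6 TPM and a change of 1.12 (standard error 0.21, limma adjusted p = 0.0198), a call that was lost without Pax5(DCRD2/-) replicate 1 (adjusted p of limma 0.186) or Pax5(+/+) replicate 3 (0.284). All samples without CRD1 were above 140 TPM, as described next, and far from those with it.

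Deletion of CRD1 alone gave Ly6a levels of 269 and 208 TPM in Pax5(DCRD1/-) and 164 and 149 TPM in Pax5(DCRD1/DCRD1) cells. The levels were 334 and 302 TPM in Pax5(DCRD1,2/-), 453 and 350.1 TPM in Pax5(DCRD1,2/DCRD1,2) and 237 and 189.8 TPM in Vav-Cre Pax5(fl/fl) cells. The means of both genotypes without CRD1 and CRD2 were thus above that of progenitors without Pax5. The log2 fold change against Pax5(+/+) was 3.24 (standard error 0.21, limma adjusted p = 5.25e-07) in Pax5(DCRD1/-), 3.66 (standard error 0.21, limma adjusted p = 4.12e-08) in Pax5(DCRD1,2/-) and 4.24 (standard error 0.19, limma adjusted p = 1.20e-09) in Vav-Cre Pax5(fl/fl) cells. In the homozygous mutants it was 3.80 for CRD1 and 3.99 for CRD1 and CRD2. Once read length was fitted, Vav-Cre Pax5(fl/fl) progenitors, which were sequenced with reads of 50 nucleotides, were not lower than Pax5(DCRD1,2/-) cells (0.59, -0.03 to 1.20), so the order of these genotypes depends on that term.

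Ly6e, a GPI-anchored protein of many lymphoid cells, was abundant in every sample and changed little. Its levels were between 2349 and 3005 TPM in Pax5(+/+) cells and were 3986 and 4060.0 TPM in Pax5(DCRD1/-), 4063 and 4684 TPM in Pax5(DCRD1,2/-) and 4639.7 and 3982 TPM in Vav-Cre Pax5(fl/fl) cells. All 10 mutant genotypes had a higher mean than Pax5(+/+), and 5 were called. The calls were 0.53, 0.58, 0.64, 0.51 and 0.72 on the log2 scale in Pax5(DCRD1/-), Pax5(DCRD1/DCRD1), Pax5(DCRD1,2/-), Pax5(DCRD1,2/DCRD1,2) and Vav-Cre Pax5(fl/fl) cells (limma adjusted p = 0.0364, 0.0173, 0.00635, 0.0229 and 8.52e-04). Of these calls, that of Vav-Cre Pax5(fl/fl) alone was kept without any single sample of the groups compared (adjusted p of limma 6.45e-04 to 0.0190). The others were lost without Pax5(+/+) replicate 3, for 3 genotypes, or Pax5(+/+) replicate 1, for Pax5(DCRD1/DCRD1), and in all but Pax5(DCRD1,2/-) without either mutant replicate (adjusted p of limma up to 0.233 for Pax5(DCRD1/-), 0.184 for Pax5(DCRD1/DCRD1), 0.0599 for Pax5(DCRD1,2/-) and 0.158 for Pax5(DCRD1,2/DCRD1,2)).

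The Ly6C genes Ly6c1 and Ly6c2 differed in level and in pattern although they share part of their sequence. Ly6c1 had 1.78, 1.86, 1.37, 2.22 and 1.27 TPM in Pax5(+/+) cells and 0.710 and 0.794 TPM in Vav-Cre Pax5(fl/fl) progenitors, and it was called there alone (-1.01, standard error 0.37, limma adjusted p = 0.0468). This call was lost without Pax5(+/+) replicate 1 or 2 or either Vav-Cre Pax5(fl/fl) replicate (adjusted p of limma 0.107, 0.116, 0.174 and 0.111). All Ly6c1 values in these experiments were under 5 TPM, and anti-Ly6C was part of the lineage mix for the Vav-Cre Pax5(fl/fl) progenitors.

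Ly6c2 was called in 0 of the 10 comparisons with Pax5(+/+), and its replicates of 1 mutant differed by up to 18.5 times, while its highest mean of a genotype was 16.0 times the lowest. It had 16.9, 14.7, 10.7, 54.7 and 23.0 TPM in Pax5(+/+) cells beside granulocyte marker sums of 1103, 893, 917, 7221 and 3746 TPM. The levels were 79.3 and 120.0 TPM in Pax5(DOP/DOP) cells, with marker sums of 7762 and 8083 TPM. In Pax5(DCRD2/-) cells Ly6c2 was 145 and 7.83 TPM with sums of 17026 and 1155 TPM, in Pax5(DCRD2/DCRD2) cells 80.4 and 10.5 TPM with sums of 10417 and 643 TPM, and in Pax5(DOP,HD/DOP,HD) cells 3.52 and 57.1 TPM with sums of 656 and 7151 TPM. In each of these genotypes the sample with the higher Ly6c2 was that with the higher sum. The lowest sums of the pro-B experiments, 179.9 and 394 TPM, were in Pax5(DCRD1/-) cells, where Ly6c2 was 5.29 and 7.14 TPM. Vav-Cre Pax5(fl/fl) progenitors differed from this order, since Ly6c2 was 80.6 and 92.0 TPM at sums of 5100.0 and 618 TPM, and replicate 2 was thus high beside a low sum. Their sums over 14 monocyte and macrophage markers were 508 and 490 TPM, against 155 to 584 TPM (mean 291.5 TPM) in Pax5(+/+) cells, with 3 markers higher and 3 lower. The change of Ly6c2 in these progenitors was 2.26 (0.10 to 4.42), with a limma adjusted p of 0.0995. It was called in 2 of 19 alternatives. Of the 14 granulocyte markers, 0 were called in any of the comparisons of Pax5(DOP/DOP), Pax5(DCRD2/-) and Vav-Cre Pax5(fl/fl) with Pax5(+/+), and the part of either marker list in the Ly6c2 levels was not tested.

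**Figure D3:**
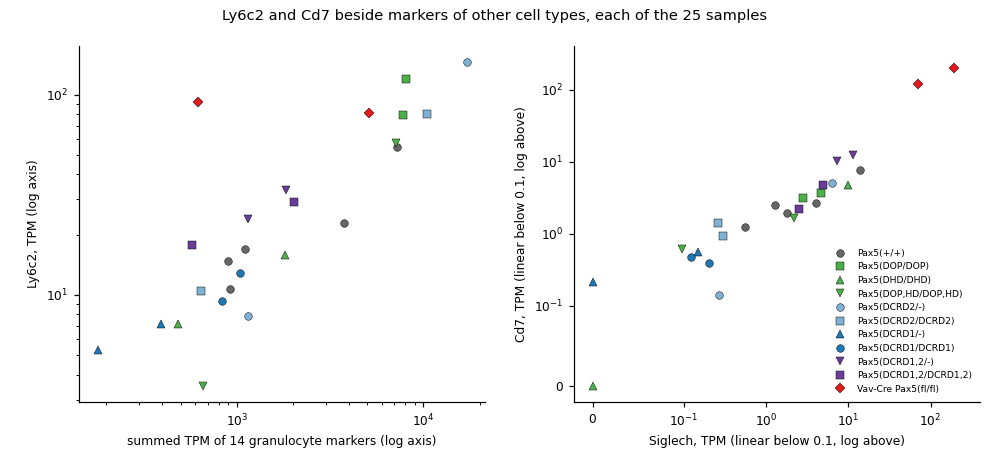
Left, Ly6c2 (y axis, TPM) against the summed TPM of 14 granulocyte markers (x axis), both logarithmic, and right, Cd7 (y axis, TPM) against Siglech (x axis, TPM), both linear below 0.1 and logarithmic above. Each point is 1 of the 25 samples and each symbol a genotype, and Vav-Cre Pax5(fl/fl) replicate 2 is high in Ly6c2 at a low marker sum, while Cd7 and Siglech are both highest in the Vav-Cre Pax5(fl/fl) samples.

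Cd7 was near the floor in pro-B cells and high in progenitors without Pax5. Its levels were 7.62, 2.67, 1.24, 2.50 and 1.92 TPM in Pax5(+/+) cells and 119 and 202 TPM in Vav-Cre Pax5(fl/fl) progenitors, a change of 5.47 (standard error 0.94, limma adjusted p = 3.92e-04). It was 0.213 and 0.564 TPM in Pax5(DCRD1/-) and 0.399 and 0.478 TPM in Pax5(DCRD1/DCRD1) cells, below all Pax5(+/+) samples but not called (-2.03, -4.23 to 0.17, and -2.71, -4.72 to -0.70). Pax5(DCRD1,2/-) cells had 12.5 and 10.2 TPM, above all Pax5(+/+) samples with a limma adjusted p of 0.0829, and Pax5(DCRD1,2/DCRD1,2) cells had 2.22 and 4.76 TPM, within the Pax5(+/+) range. Against Pax5(DCRD1/-), which came from another gate, Cd7 was higher in Pax5(DCRD1,2/-) cells by 4.64 (standard error 1.03, limma adjusted p = 0.0229), the only 1 of the 8 genes called (3.57% of all genes). This call was lost without any 1 of the 4 samples (adjusted p of limma 0.0648 to 0.199).

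Siglech, a surface marker of plasmacytoid dendritic cells, moved with Cd7 from sample to sample. Siglech was 13.9, 4.01, 0.551, 1.27 and 1.81 TPM in Pax5(+/+) cells, with the highest value in replicate 1, which also had the highest Cd7. It was 70.6 and 195 TPM in Vav-Cre Pax5(fl/fl), 11.4 and 7.33 TPM in Pax5(DCRD1,2/-) and 0 and 0.148 TPM in Pax5(DCRD1/-) cells. In Pax5(DHD/DHD) cells, replicate 1 had 0 TPM of both genes and replicate 2 had 4.71 TPM of Cd7 and 9.86 TPM of Siglech. The Siglech values of Pax5(DCRD1,2/-) cells thus lay within the Pax5(+/+) range, while their Cd7 was above it. Of the 15 plasmacytoid dendritic cell markers, 10 were higher and 2 lower in Vav-Cre Pax5(fl/fl) progenitors than in Pax5(+/+) cells (34.9% of all genes called). Their sum was 5469 and 5633 TPM against 3785 to 4415 TPM. The sum was about as high in Pax5(DCRD2/-) cells, at 5250 to 5888 TPM, and in Pax5(DHD/DHD) cells, at 5177 to 5560 TPM. Cd7 had means of 2.62 and 2.35 TPM in these genotypes. In Pax5(DCRD1,2/-) cells 3 of the markers were higher and 4 lower (23.5% of all genes called), and the sum was 3147 and 3475 TPM. The list also holds Dntt, Irf8 and Tcf4, which lymphoid progenitors express, and its part in the Cd7 level was not tested.

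Cd27 was called against Pax5(+/+) in Pax5(DCRD1,2/-) cells and Vav-Cre Pax5(fl/fl) progenitors alone. It had 30.9, 45.8, 24.9, 26.5 and 27.2 TPM in Pax5(+/+) cells, 59.1 and 46.5 TPM in Pax5(DCRD1,2/-) cells and 224 and 199 TPM in Vav-Cre Pax5(fl/fl) progenitors. The change was 1.03 (standard error 0.22, limma adjusted p = 0.00325) in Pax5(DCRD1,2/-) and 2.64 (standard error 0.20, limma adjusted p = 1.57e-07) in Vav-Cre Pax5(fl/fl) cells. The call in Pax5(DCRD1,2/-) cells was lost with a replicate block in place of read length. Pax5(DCRD1,2/DCRD1,2) cells had 23.1 and 25.3 TPM and no call (-0.09, -0.55 to 0.37), and they lack the same domains as Pax5(DCRD1,2/-) cells. The direct difference between homozygous and hemizygous cells was -1.11 (standard error 0.22, limma adjusted p = 0.0756). Cd27 was also the only 1 of the 8 genes called between Vav-Cre Pax5(fl/fl) and Pax5(DCRD1,2/-) cells (1.61, standard error 0.29, limma adjusted p = 0.00835, with 3.65% of all genes called, 61.4% of them higher, or 50.3% after median-of-ratios scaling). In Pax5(DHD/DHD) cells it was 50.8 and 47.3 TPM, above all Pax5(+/+) samples, with a limma adjusted p of 0.0646 against replicates 3 and 4. Pax5(DOP/DOP) cells, with 31.8 and 25.7 TPM, differed from Pax5(DHD/DHD) cells by -0.77 (standard error 0.17, limma adjusted p = 0.0492), so that 2 of the 8 genes, Ly6d and Cd27, were called between the central deletions (3.96%). The Cd27 call was lost without any 1 of the 4 samples (limma adjusted p = 0.132 and 0.318 for Pax5(DOP/DOP) replicates 1 and 2, 0.257 and 0.233 for those of Pax5(DHD/DHD)).

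Cd44 fell where CRD1 was deleted. Its levels were 45.8, 32.9, 27.1, 37.3 and 37.8 TPM in Pax5(+/+) cells, 7.08 and 7.98 TPM in Pax5(DCRD1/-) and 12.7 and 14.4 TPM in Pax5(DCRD1/DCRD1) cells. It was 9.14 and 5.33 TPM in Pax5(DCRD1,2/-) and 4.26 and 5.62 TPM in Pax5(DCRD1,2/DCRD1,2) cells. These 8 samples were all below 15 TPM, and the lowest Pax5(+/+) sample had 27.1 TPM. The log2 fold change was -2.06 (standard error 0.26, limma adjusted p = 1.38e-04) in Pax5(DCRD1/-), -1.50 in Pax5(DCRD1/DCRD1), -2.17 in Pax5(DCRD1,2/-) and -2.67 (standard error 0.26, limma adjusted p = 6.83e-06) in Pax5(DCRD1,2/DCRD1,2) cells. Vav-Cre Pax5(fl/fl) progenitors had 20.3 and 20.1 TPM, between these 8 samples and Pax5(+/+), and a change of -0.92 (standard error 0.24, limma adjusted p = 0.00783), and compared directly with Pax5(DCRD1,2/-) cells they differed by 1.24 (0.48 to 2.01, limma adjusted p = 0.0733). This middle level was not repeated in the experiment with the Prd allele. There Vav-Cre Pax5(fl/fl) progenitors had 5.71 and 7.98 TPM, among the levels of these 8 samples. Cd44 was not called without CRD2 alone, with 28.7 and 23.7 TPM in Pax5(DCRD2/-) and 37.8 and 26.9 TPM in Pax5(DCRD2/DCRD2) cells, nor in the central mutants, whose 6 samples lay between 16.0 and 28.6 TPM, although the mean was below that of Pax5(+/+) in all 10 mutants. None of the stated pro-B or progenitor gates used CD44.

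Deletions of CRD1 and of CRD2 were also compared directly, in hemizygous pro-B cells from the same gate. Between Pax5(DCRD1/-) and Pax5(DCRD2/-) pro-B cells 3 of the 8 genes were called (4.46% of all genes). Ly6a was higher without CRD1 by 2.11 (standard error 0.21, limma adjusted p = 7.78e-05), Ly6d was higher by 1.30 (standard error 0.19, limma adjusted p = 0.00119), and Cd44 was lower (-1.78, standard error 0.26, limma adjusted p = 0.00127). Without Pax5(DCRD2/-) replicate 2, 5 were called, with Ly6c2 and Cd7 added, and the remaining Pax5(DCRD2/-) replicate 1 has the highest granulocyte marker sum of all samples.

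In the models of all C-terminal genotypes, the number of mutant alleles gave no call among the 8 genes. For CRD2, 0 were called between homozygous and hemizygous cells (0.224% of all genes; 1 of the 8 at an unadjusted p under 0.05, 0 with edgeR and 1 with DESeq2). The gene past the unadjusted threshold and with DESeq2 was Ly6a, with a difference of -0.87 (-1.32 to -0.41, limma adjusted p = 0.148). For CRD1 the count was 0 (0.0289%, 75.0% of them higher, or 100% after median-of-ratios scaling; 1 unadjusted, 0 with either count test), and the fitted Ly6a difference was 0.57 (-0.05 to 1.18). Its direction is opposite to that of the means of 156.4 and 238.5 TPM, because these genotypes were sequenced with reads of 50 and 100 nucleotides and the term for read length was fitted on the Pax5(+/+) samples. That term rests on 3 Pax5(+/+) samples against 2 and cannot be told apart from other differences between them. When the samples of these genotypes alone were fitted without that term, the Ly6a difference was -0.60 and was called (limma adjusted p = 0.0280), as were Ly6c2 and Cd44, so the count was 3 in that fit. For both domains the count was 0 (0.159%; 2 unadjusted and 1 with either count test, which was Cd27). The test of whether the CRD1 and CRD2 deletions combined other than by addition in homozygous cells also called 0 of the 8 (3.04%; 4 unadjusted, 1 with edgeR and 2 with DESeq2). The estimates with the lowest adjusted p of limma, 0.129 and 0.0938, were 4.15 (1.17 to 7.14) for Cd7 and -1.18 (-1.94 to -0.42) for Cd44.

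The experiment with the Prd allele asked whether the paired domain alone alters the state of progenitors without Pax5. Vav-Cre Pax5(fl/fl) progenitors differed from Vav-Cre Pax5(fl/+) pro-B cells in 7 of the 8 genes, with 5 higher and 2 lower (39.9% of all genes). Ly6d was 550.3 and 551 TPM in Vav-Cre Pax5(fl/+) and 3007 and 2303 TPM in Vav-Cre Pax5(fl/fl) cells (2.26, standard error 0.15, limma adjusted p = 1.26e-04). Ly6a was 19.3 and 16.6 against 155 and 187 TPM (3.24, standard error 0.18, limma adjusted p = 6.82e-05). Both genes were several times higher in every progenitor sample than in either Vav-Cre Pax5(fl/+) sample. Cd7 was 0.788 and 0.942 against 31.4 and 21.3 TPM (4.75, standard error 0.22, limma adjusted p = 4.26e-05), a level below that of the Vav-Cre Pax5(fl/fl) progenitors of the pro-B experiments, as was that of Siglech, with 0.0564 and 0.385 against 17.3 and 23.5 TPM. Cd27 was 52.3 and 58.4 against 179.7 and 150.3 TPM (1.57, standard error 0.11, limma adjusted p = 1.43e-04). Ly6c2 was 2.403 and 2.38 against 14.4 and 10.7 TPM (2.33, standard error 0.18, limma adjusted p = 2.31e-04), beside granulocyte marker sums of 127 and 210.2 against 898 and 476 TPM, in which 11 of 14 markers were higher. These Ly6c2 levels were below the 80.6 and 92.0 TPM of the Vav-Cre Pax5(fl/fl) progenitors of the pro-B experiments. Ly6c1 fell to 0.327 and 0.301 from 1.87 and 2.00 TPM and Cd44 to 7.98 and 5.71 from 21.8 and 20.9 TPM (-2.30 and -1.65, limma adjusted p = 0.00425 and 7.67e-04), while Ly6e was not called (0.22, 0.01 to 0.43).

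No difference in these genes passed the test between progenitors with the paired domain alone and those without Pax5. Between Vav-Cre Pax5(Prd/fl) and Vav-Cre Pax5(fl/fl) progenitors, which carry the same gate label, 0 of the 8 genes were called (1.97% of all genes, of which 59.6% were higher, or 48.7% after median-of-ratios scaling; 0 at an unadjusted p under 0.05 and 0 with edgeR or DESeq2). The log2 differences and intervals were -0.07 (-0.50 to 0.36) for Ly6a, -0.15 (-0.51 to 0.21) for Ly6d, -0.01 (-0.55 to 0.53) for Cd7 and -0.16 (-0.42 to 0.10) for Cd27. They were 0.30 (-0.12 to 0.72) for Cd44 and 0.62 (-0.29 to 1.54) for Ly6c1. For Ly6c2 and Ly6e they were -0.21 (-0.64 to 0.23) and -0.03 (-0.25 to 0.18), so that differences of these sizes were not detectable with 2 samples a group. Cd44 and Ly6c1 were higher in both Vav-Cre Pax5(Prd/fl) samples than in either Vav-Cre Pax5(fl/fl) sample, with 8.39 and 8.28 TPM of Cd44 and 0.635 and 0.451 TPM of Ly6c1. With 2 samples a group, such an order often arises without a difference, and its share over all genes was not counted. Against Vav-Cre Pax5(fl/+) pro-B cells, Vav-Cre Pax5(Prd/fl) progenitors differed in 7 of the 8 genes (40.7%), with 5 higher and 2 lower, and the pair of comparisons shares its control samples. The Ly6c1 call of this comparison was lost without Vav-Cre Pax5(fl/+) replicate 1 or 2 (limma adjusted p = 0.0680 and 0.0650).

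**Figure D4:**
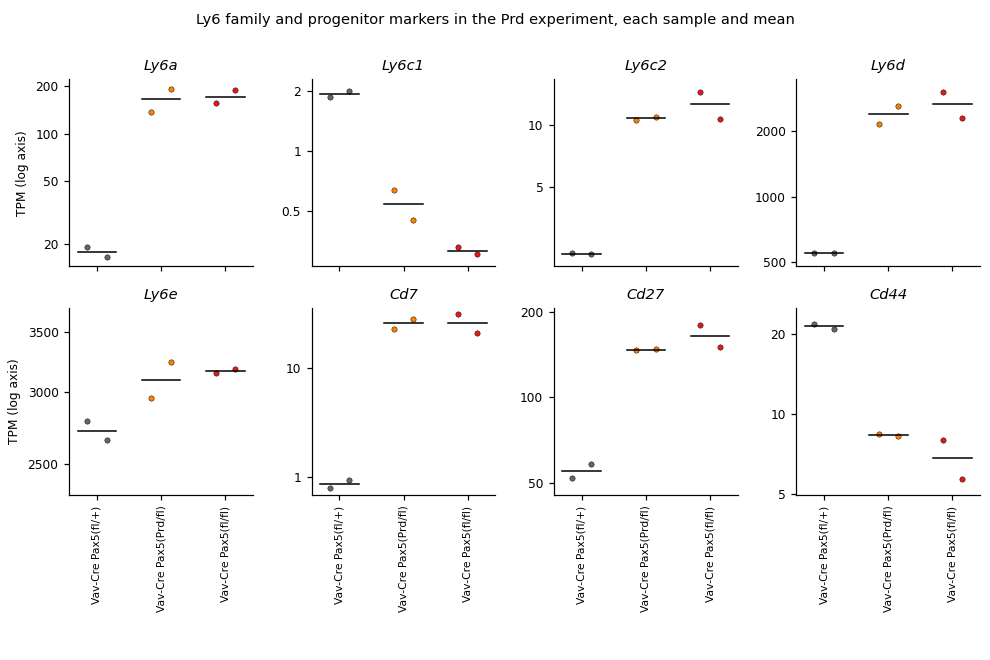
TPM of the 8 genes (y axes, logarithmic) in each sample of the experiment with the Prd allele by genotype (x axis), with points for samples and bars for the mean of 2 samples. No progenitor sample overlaps the Vav-Cre Pax5(fl/+) pro-B cells in any of the 8 genes, although Ly6e differs little and was not called. The groups of progenitors lie close to each other. They do not overlap in Ly6c1, Cd27 and Cd44, none of which was called between them. With 2 samples a group, this often occurs without a difference.

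In the T-lineage samples, which were aligned to another genome build and scaled separately, each of the 8 genes had a course of its own over the stages. Ly6d rose most. It was 10.3 and 9.14 TPM in LMPP, 302, 291 and 295 TPM in DN1 and 2248, 1909.5 and 1597 TPM in DN2a cells. It went on to 2220.2, 2719 and 3163 TPM in DN2b and 4369 and 3438 TPM in DN3a cells and was back at 1019.6 and 847 TPM in DN3b cells. Thus Ly6d was more abundant in DN3a thymocytes than in the Pax5(+/+) pro-B cells of the other tables, a comparison of levels across separately made tables. From LMPP to DN1 and from DN1 to DN2a the log2 fold changes were 4.91 (standard error 0.17, limma adjusted p = 3.12e-10) and 2.68 (standard error 0.15, limma adjusted p = 5.35e-08). The LMPP gate excluded Ly6C+ cells but did not use Ly6D, and neither did the DN gates.

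From LMPP to DN1, 4 of the 8 genes rose and 0 fell (18.6% of all genes called). Besides Ly6d these were Cd7, from 11.3 and 8.06 to 431, 440.1 and 442 TPM (5.51, standard error 0.30, limma adjusted p = 1.75e-08), Ly6c2, from 1.61 and 1.09 to 8.33, 8.82 and 13.3 TPM (2.82, standard error 0.39, limma adjusted p = 1.30e-04), and Ly6e, from 965 and 1169.5 to 3225, 2648 and 3147 TPM (1.50, standard error 0.14, limma adjusted p = 4.50e-06). Siglech was at most 0.262 TPM in all 17 samples, so the high Cd7 of DN1 cells stood beside a Siglech level near 0. Ly6a, Cd27 and Cd44 were not called between LMPP and DN1 cells, with differences of 0.03 (-0.43 to 0.49), 0.07 (-0.15 to 0.30) and 0.06 (-0.37 to 0.49). The highest mean of the 7 stages and genotypes was 906 times the lowest for Cd7, 617 times for Ly6d, 481 times for Cd44 and 3.18 times for Ly6e. The sums over 13 granulocyte markers were 2147 and 2406 TPM in LMPP and 1871, 1802 and 2055 TPM in DN1 cells. Of 11 tested 1 was higher and 5 were lower in DN1 cells. The sums do not stand for the whole list, since Mpo alone had means of 1385 TPM in LMPP and 1647 TPM in DN1 cells. In contrast, S100a8 had means of 6.45 and 0.380 TPM and Ngp of 1.55 and 0 TPM.

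After DN1, Cd7, Cd44 and Ly6c2 fell at each step to DN3a, and Ly6a fell at the steps to DN2a and DN2b. From DN1 to DN2a 5 of the 8 genes fell and 2 rose (33.7%). Cd7 went from 438 TPM in DN1 to 122, 116 and 95.9 TPM in DN2a, 23.3, 29.5 and 25.6 TPM in DN2b, 5.81 and 5.52 TPM in DN3a and 0.728 and 0.237 TPM in DN3b cells, with no overlap between these stages. The 4 steps were -1.98, -2.09, -2.18 and -3.45 on the log2 scale (adjusted p of limma 9.35e-05, 7.81e-05, 6.54e-05 and 1.34e-06). Cd44 went from 132, 114 and 118 TPM in DN1 to 37.5, 43.5 and 44.7 TPM in DN2a and 17.9, 14.8 and 13.7 TPM in DN2b cells, which were all sorted as CD44+, and to 1.91 and 1.19 TPM in DN3a cells, which were sorted as CD44-. Its step between those gates was -3.26 (standard error 0.20, limma adjusted p = 6.54e-08), and the steps within the CD44+ gates were -1.53 and -1.44. Ly6a fell more slowly, from a mean of 122 TPM in DN1 to 73.5, 42.9 and 30.9 TPM in DN2a, DN2b and DN3a cells. The median of all genes moved by -0.18 in the step to DN2a, and after median-of-ratios scaling, a shift of 0.15, the Ly6a step of -0.77 was -0.61 and just missed the call (limma adjusted p = 0.0512), while the share of higher calls among all genes went from 32.2% to 44.2%.

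Ly6c1 and Ly6c2 moved in opposite directions in the thymus. Ly6c1 was 1.76, 0.705 and 1.25 TPM in DN1, 3.91, 4.58 and 2.90 TPM in DN2a, 11.4, 12.5 and 14.9 TPM in DN2b and 16.1 and 12.2 TPM in DN3a cells. Over the same stages Ly6c2 was 8.33, 8.82 and 13.3, then 2.75, 2.29 and 1.05, then 0.532, 1.01 and 0.762 and then 0.133 and 0.234 TPM. The order of this pair of genes was thus turned round, with Ly6c2 above Ly6c1 in all DN1 samples and Ly6c1 above Ly6c2 in all DN2a, DN2b and DN3a samples. From DN1 to DN2a Ly6c1 rose by 1.60 (standard error 0.32, limma adjusted p = 0.00226) and Ly6c2 changed by -2.34 (standard error 0.35, limma adjusted p = 2.35e-04). The sums of granulocyte markers fell over the same step, from 1871, 1802 and 2055 TPM to 470.1, 491 and 512 TPM, and further to 13.6, 13.1 and 25.4 TPM in DN2b cells, and their part in the fall of Ly6c2 was not tested. Mpo, with means of 1647, 446 and 11.9 TPM in DN1, DN2a and DN2b cells, made up most of these sums.

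Between DN2a and DN2b cells 6 of the 8 genes were called, 2 higher and 4 lower (18.2%). Without DN2a replicate 1b, 3 were called, because Ly6a, Ly6c2 and Ly6d were lost (adjusted p of limma 0.0661, 0.0929 and 0.0771). Single samples of both stages also ended the call of Ly6c2 (DN2a replicate 1a and DN2b replicate 1, limma adjusted p = 0.114 and 0.105) and that of Ly6d (DN2a replicate 2 and DN2b replicates 2a and 2b, limma adjusted p = 0.0784, 0.0814 and 0.109), and median-of-ratios scaling ended that of Ly6d as well (0.197). With the mean of each same-numbered pair as 1 sample, which left 14 samples, 3 were called, with Ly6a, Ly6c2 and Ly6d lost (adjusted p of limma 0.0698, 0.119 and 0.1202), and the counts of the other steps were unchanged. From DN2b to DN3a cells 2 rose and 3 fell (45.8%), and without DN3a replicate 1 the count was 3, with Ly6c2 and Ly6d lost (adjusted p of limma 0.0554 and 0.195), and Ly6d was also lost without DN2b replicate 1 (0.0562). Cd27 was the gene that turned, with 690.3, 677 and 637 TPM in DN1, 320.5, 282 and 313 TPM in DN2a and 329, 347 and 312 TPM in DN2b cells, and then 517 and 470.4 TPM in DN3a cells (0.58, standard error 0.10, limma adjusted p = 5.56e-04). The median of all genes moved by 0.27 on the log2 scale in the step to DN3a, and after median-of-ratios scaling, which shifts the step by -0.27, the changes of Cd27 and Ly6d were 0.31 and 0.26 and were no longer called (limma adjusted p = 0.0548 and 0.396). That scaling moved the share of higher calls among all genes from 68.5% to 47.6% in this step.

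From DN3a to DN3b, when cells that have rearranged the T cell receptor β gene resume division, 7 of the 8 genes fell (53.4% of all genes called). Ly6d fell by 2.06, Ly6a by 2.03, Ly6c1 by 2.74, Cd27 by 1.33 and Cd44 by 1.99 on the log2 scale (limma adjusted p from 6.30e-07 to 5.74e-05). The median of all genes in this step was -0.41 and 26.5% of all calls were higher, against -0.07 and 46.0% after median-of-ratios scaling. Under that scaling Ly6e, which fell by 0.49 in TPM, changed by -0.13 and was not called (limma adjusted p = 0.567), and the calls of the 6 other genes were kept. The Ly6e call was also lost without DN3a replicate 1 or DN3b replicate 1 or 2 (limma adjusted p = 0.133, 0.0618 and 0.0680). Ly6c2 was 0.133 and 0.234 TPM in DN3a and 0.405 and 0.308 TPM in DN3b cells and was not called.

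**Figure D5:**
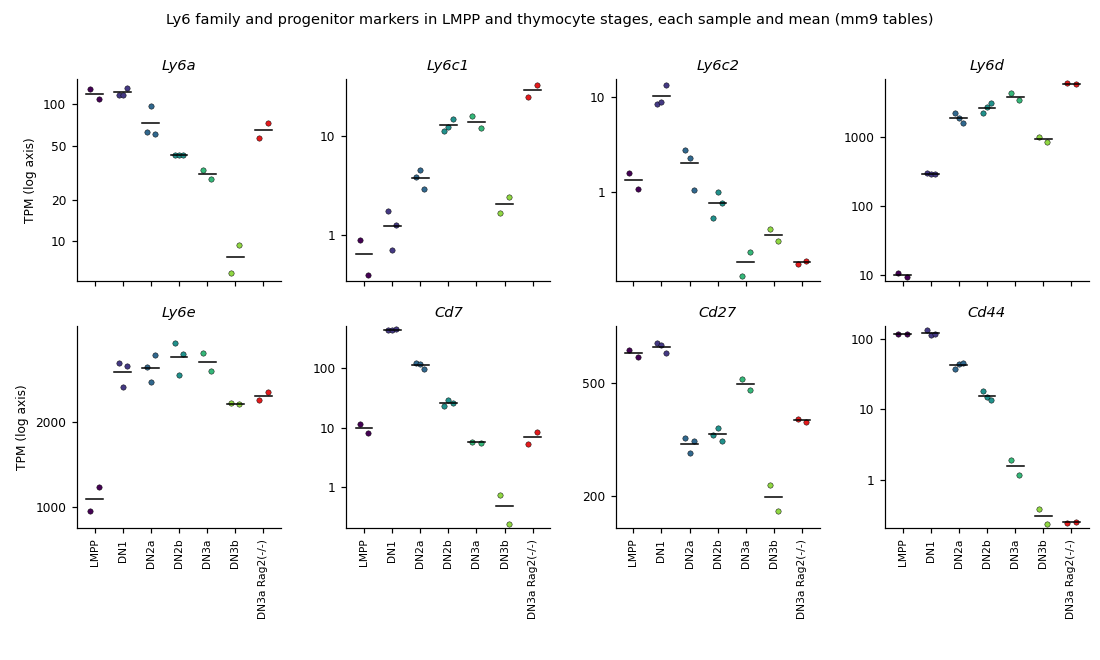
TPM of the 8 genes (y axes, logarithmic) in each of the 17 T-lineage samples by stage (x axis, LMPP to DN3b, then DN3a cells of Rag2(-/-) mice), with points for samples and bars for the mean of 2 or 3 samples. Ly6d and Ly6c1 climb from LMPP to DN2b and are lower in DN3b than in DN3a, Cd7 is highest in DN1 at a mean of 438 TPM, and Cd44 is lower at each stage from DN1 to DN3b.

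DN3a cells of Rag2(-/-) mice, which hold no cell that has passed receptor rearrangement, differed from wild-type DN3a cells in 4 of the 8 genes (26.4% of all genes). Ly6a was 57.1 and 72.9 TPM against 33.0 and 28.8 TPM in wild-type cells (1.06, standard error 0.24, limma adjusted p = 0.00522), and Ly6d was 6095 and 5938 against 4369 and 3438 TPM (0.63, standard error 0.18, limma adjusted p = 0.0207). Both were higher in each Rag2(-/-) sample. Cd44 was 0.248 and 0.256 against 1.91 and 1.19 TPM (-2.19, standard error 0.22, limma adjusted p = 2.60e-05) and Cd27 was 374 and 364 against 517 and 470.4 TPM (-0.42, standard error 0.11, limma adjusted p = 0.0165), both lower. Single samples decided most of these calls: 3 were left without DN3a replicate 1, where Cd27 was lost, 2 without DN3a replicate 2, where Ly6a and Ly6d were lost, 2 without Rag2(-/-) replicate 1, where Ly6d and Cd27 were lost, and 1, that of Cd44, without Rag2(-/-) replicate 2. Under median-of-ratios scaling, which shifts this comparison by 0.18, the fall of Cd27 was -0.20 and was lost (limma adjusted p = 0.275), and the share of higher calls among all genes moved from 26.2% to 47.6%.

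Set beside the other genes, each of the 8 had companions with nearly the same pattern over the 11 genotypes of the pro-B experiments. The 3 most alike among 10935 genes, by Pearson's r of the mean log2(TPM + 0.1), were Nlrc4 (r = 0.972), Sema6d (r = 0.970) and Ctla2b (r = 0.969) for Ly6a and Rnf227 (r = 0.985), Tmem173 (r = 0.984) and Nmrk1 (r = 0.982) for Ly6d. They were Rtp4 (r = 0.929), 4930486L24Rik (r = 0.925) and Alox5ap (r = 0.909) for Ly6e and Cers5 (r = 0.913), Zcchc2 (r = 0.898) and Tmem131l (r = 0.896) for Ly6c1. For Ly6c2 they were Ltb4r1 (r = 0.988), Cd34 (r = 0.972) and Ncf1 (r = 0.958), of which Ncf1 encodes a subunit of the phagocyte oxidase and Cd34 a progenitor surface protein. For Cd7 they were Ctsw (r = 0.962), Siglech (r = 0.962) and Fyb (r = 0.960), for Cd27 Fam189b (r = 0.976), Rab27a (r = 0.963) and Pstpip1 (r = 0.960) and for Cd44 Dusp10 (r = 0.975), Vsir (r = 0.975) and Clcn6 (r = 0.974). Among the 8 themselves, Ly6a and Ly6d had r = 0.918, Ly6d and Ly6e 0.870, Cd7 and Cd27 0.754 and Ly6a and Cd44 -0.879. Ly6c1 and Ly6c2 had r = -0.722. These values describe 11 genotypes that share gates, read lengths and the marker differences given above, and they come from a search over many genes.

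Other genes of the same families and uses moved in part with these. Of the other Ly6 and uPAR family genes, 5 of 12 tested were higher and 2 lower in Vav-Cre Pax5(fl/fl) progenitors than in Pax5(+/+) cells, where 34.9% of all genes were called, with a median of 1.08 against 0.00 for all genes. They included 9030619P08Rik (7.30), 2010109I03Rik (2.12) and Ly6k (1.62), which rose, and Pinlyp (-4.04), which fell. In Pax5(DCRD1/-) cells, where 10.9% of all genes were called, 1 was higher, Lynx1 (1.94), a GPI-anchored modulator of acetylcholine receptors, and 1 was lower, Pinlyp (-5.46). Of 20 other progenitor surface markers, 9 of 18 tested were higher and 3 lower in Vav-Cre Pax5(fl/fl) progenitors (median 0.60), and 6 higher and 2 lower in Pax5(DCRD1/-) cells (median 0.11 against 0.02). Flt3, the FLT3 ligand receptor of lymphoid progenitors, rose by 5.20 in Vav-Cre Pax5(fl/fl), 3.56 in Pax5(DCRD1,2/-) and 2.01 in Pax5(DCRD1/-) cells.

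The shares of all genes called, 34.9% and 10.9%, also stand beside the counts of the next lists. Of the GPI anchor genes, 5 of 26 tested were higher and 1 lower in Vav-Cre Pax5(fl/fl) progenitors (median 0.16), and 0 were called in Pax5(DCRD1/-) cells, where Ly6a and Ly6d were high. Of the ligands and partners of CD7, CD27 and CD44, 2 of 12 tested were higher and 1 lower in Vav-Cre Pax5(fl/fl) progenitors (median -0.17). These were Spp1 (1.08), whose product osteopontin binds CD44, Srgn (0.41), a proteoglycan, and Hmmr (-2.14), a hyaluronan receptor of dividing cells, which was the lower one. The interferon-stimulated genes, a group to which Ly6a and Ly6e belong in many cells, were called in different numbers. In Vav-Cre Pax5(fl/fl) progenitors 15 of 20 were higher and 0 lower (median 1.16), as with Ifi44 (3.23) and Bst2 (1.88), while in Pax5(DCRD1/-) cells 0 were higher and 3 lower (median -0.31), as with Zbp1 (-1.95). In Pax5(DCRD1/DCRD1) cells 4 were higher and 0 lower (median 0.47, with 7.75% of all genes called). In the thymus 19 of 20 fell from DN3a to DN3b cells (median -2.19 against -0.41 for all genes, of which 53.4% were called). Ly6a fell in this step as well. Ly6e fell in TPM but was not called there after median-of-ratios scaling, and a link to these genes was not tested. These lists were chosen with earlier results known and are described by their counts alone.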

How the data were processed

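RNA-seq of 48 of the 71 samples was analysed. The ATAC-seq and ChIP-seq samples were not used here. The authors trimmed reads to 50 nucleotides, aligned them to GRCm38 with STAR 2.4.2a, assigned unique reads to genes of RefSeq with Rsubread and, for 31 samples, deposited TPM. The deposited raw counts of some samples take the place of gene names in 8 tables. Genes were assigned there by the row order of the 23 named tables, which was checked on the raw counts of Pax5(+/+) replicate 3, zero or not where its TPM was in 25579 of 25579 rows, and, for the Prd tables, on the gene lengths implied by counts and TPM, which matched within 1% in 14405 of 14405 rows. Reads of the 17 T-lineage samples were aligned by the authors to mm9 with TopHat 1.4.1, and they deposited a signal in TPM with 2 values for each gene, without saying how they differ. Their mean was used, and an entry of exactly 1 was read as 0. The higher value was 1.06 to 1.43 times the lower for the 8 genes.

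Tests used limma 3.58.1 in R 4.3.3 on log2(TPM + 0.1), with lmFit and eBayes with a trend, and two-sided p-values were adjusted after Benjamini and Hochberg over the genes that exceeded 1 TPM in some sample of the model. The models held 8 samples of the central domains, 19 of the C-terminal domains with read length as a term, 6 of the Prd experiment and 17 of the T lineage. Reads recovered from TPM, whole within 0.01 for all of the 5849 to 9692 values tested per sample, were tested with edgeR 4.0.16 and DESeq2 1.42.0 as alternatives. Methods were tested on simulated data. Replicates are separate samples by their labels, except that pairs in DN1, DN2a and DN2b share a number, and nothing says that they came from separate animals, so p-values measure only the spread between these samples, which may be technical. Named genes were all 8, Pax5, the 3 most alike in pattern, and up to 4 with the largest called change from each list among genes above 5 TPM. Siglech was chosen from its list after its values were seen. The 8 genes and all lists were chosen with earlier results of these data known.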

Additional observations from a re-analysis of the deposited data

Results flagged for a closer look

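In the 5 Pax5(+/+) samples, 3 of the 8 genes had 1 sample farther from the others than Dixon's 95% limit allows, a limit that chance passes in about 1 of 20 groups. Ly6c2 was 54.7 TPM in replicate 4, where the sum of granulocyte markers was 7221 TPM against 893 to 3746 TPM in the other replicates. Cd7 was 7.62 TPM in replicate 1, where Siglech was 13.9 TPM against 0.551 to 4.01 TPM in the others. Cd27 was 45.8 TPM in replicate 2, against 24.9 to 30.9 TPM in the others. Their causes were not tested.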

How the results depend on the processing

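Of the 83 calls in the 8 genes, 81 were kept with a pseudocount of 1, 82 with 0.01, 76 with no filter on low values, 74 with median-of-ratios scaling and 80 without the trend, and 0 changed direction under any alternative. Of the calls that each alternative could fit, 49 of 50 were kept with edgeR and 49 of 50 with DESeq2, 31 of 32 with no read length term, 27 of 31 with samples of 1 read length, 25 of 32 with only the genotypes compared, and 33 of 33 with the lower or the upper T-lineage value. Merging same-numbered samples of a stage, an alternative chosen after seeing the data, kept 30 of 33, and its count for DN2b was 3. Leaving out 1 sample kept 391 of 448. The cause of lost calls was not tested.

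With edgeR and DESeq2 on recovered reads the counts of called genes were 2 and 4 for Pax5(DHD/DHD), 2 and 3 for Pax5(DOP,HD/DOP,HD), 2 and 3 for Pax5(DCRD1,2/-) against Pax5(DCRD1/-), 1 and 1 for the alleles without both domains and 1 and 2 for the combined action of CRD1 and CRD2, and with DESeq2 they were 2 for Vav-Cre Pax5(fl/fl) against Pax5(DCRD1,2/-) and 1 for the alleles without CRD2. For Pax5(DOP/DOP) against Pax5(DHD/DHD) the count was 1 with a pseudocount of 0.01, no filter, scaling or no trend. For Pax5(DCRD2/DCRD2) it was 0 with no filter, no trend, no read length term, 1 read length or only the genotypes compared. For Pax5(DCRD2/-) it was 1 with 1 read length and 1 with only the genotypes compared. For Pax5(DCRD1,2/-) against Pax5(DCRD1/-) it was 0 with 1 read length and 2 with only the genotypes compared. For Vav-Cre Pax5(fl/fl) against Pax5(DCRD1,2/-) it was 3 with no read length term and 4 with only the genotypes compared. With only the genotypes compared it was also 3 for the alleles without CRD1 and 1 for the combined action, and scaling gave 1 for the alleles without both domains.

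Leaving out 1 sample gave counts of 0 to 1 for Pax5(DHD/DHD), 0 to 1 for Pax5(DOP,HD/DOP,HD), 0 to 1 between these central deletions, 1 to 2 for Pax5(DCRD2/-), 0 to 1 for Pax5(DCRD2/DCRD2), 0 for Pax5(DCRD1,2/-) against Pax5(DCRD1/-), 3 to 5 for Pax5(DCRD1/-) against Pax5(DCRD2/-), 1 to 2 for Vav-Cre Pax5(fl/fl) against Pax5(DCRD1,2/-), 3 to 5 for DN2b, 3 to 5 for DN3a and 1 to 3 for Rag2(-/-) cells. With an arm of 1 sample, that sample is assumed to vary like the other groups.

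Of 110 same-numbered pairs of samples, 12 had a correlation of deviations above 0.1. Where both groups have 2 replicate numbers, each correlation appears 2 times, so these are not separate checks. The count therefore does not exclude that samples were paired. With a replicate block, which took the place of the read length term, the count was 2 for Pax5(DCRD2/DCRD2), 2 for Pax5(DCRD1,2/-) against Pax5(DCRD1/-), 4 for Vav-Cre Pax5(fl/fl) against Pax5(DCRD1,2/-) and 1 for the alleles without CRD2, and 79 of 81 calls were kept, with Ly6d in Pax5(DCRD2/DCRD2) and Cd27 in Pax5(DCRD1,2/-) lost. A block was not possible for central mutants against Pax5(+/+), which share no numbers. With 2 or 3 samples a group, differences smaller than the intervals given were not detectable.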
